A study of Mus musculus with 10 samples.

Results

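This section compares, gene by gene, mouse embryonic fibroblasts (MEFs) 5 days into reprogramming with FoxO6 added and without it. The cells came from E13.5 embryos of strain CBA/CaJ X C57BL/6J and were infected with retroviruses made in PlatE packaging cells, then grown in iCD1 medium. Both groups received OKS, the factors Oct4 (Pou5f1), Klf4 and Sox2, and differed in the added virus: DR, the fluorescent protein DsRed, in the control group and Foxo6 in the other. The labels and methods do not say how many embryos or dishes went into a library. The series holds 10 RNA-seq libraries, 1 for each of the 2 arms on days 0, 1, 3, 5 and 7, and the comparison here is OKS+FoxO6_D5 against OKS+DR_D5, 1 library a side. Its members were the 11921 genes of 50600 with at least 10 expected counts in the library where the gene was higher. The lowest count inside this limit was 10 and the highest outside was 9.99. The members held 99.1% of the counts of OKS+DR_D5 and 99.3% of those of OKS+FoxO6_D5.

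FoxO6 belongs to the FoxO branch of forkhead transcription factors, which insulin and growth factor signals hold in check and which are known for genes of stress defence, metabolism, autophagy and cell cycle arrest. In reprogramming, fibroblasts lose mesenchymal genes, gain epithelial ones such as the cadherin Cdh1, and then turn on pluripotency genes. Interferons act through cell surface receptors and kinases of the Jak family to raise antigen presentation genes and antiviral effectors. The comparison addresses how the transcriptome of OKS cells differs when FoxO6 is present at the time when epithelial and pluripotency genes are coming on.

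Foxo6 itself checks the labels. It had 0.61, 1.55, 1.61, 2.29 and 0.81 TPM, the deposited scale that sets a gene's reads against its transcript length and the library total, in the OKS+DR libraries of days 0, 1, 3, 5 and 7. The OKS+FoxO6 libraries of the same days had 1017, 1325, 1356, 1267 and 762 TPM of Foxo6, so the arms did not overlap on any day. Transduced Pou5f1 stood at 3720 TPM in OKS+DR_D5 and 7071 TPM in OKS+FoxO6_D5, Klf4 at 2168 and 3517 TPM, and Sox2 at 1952 and 3043 TPM. All 3 reprogramming factors were thus higher in the library with FoxO6, by 0.93, 0.70 and 0.64 in log2(TPM + 1), less than 2-fold. Reads from the viruses and from the genome's own copies of these factors cannot be told apart in gene counts. The part of this dose difference in the results that follow was not tested.

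The total was 1357802 expected counts in OKS+DR_D5 and 2059623 in OKS+FoxO6_D5, within the range of 1208379 to 2225750 over the 10 libraries. With 1 library a side no test of the condition exists at day 5 alone, and a gene is described here by its difference in log2(TPM + 1), OKS+FoxO6 minus OKS+DR. A gene is called where this difference was at least 1 in size, that is 2-fold, and where an exact binomial test of the counts passed an adjusted p of 0.05 (Benjamini-Hochberg over all members). That test asks whether read sampling alone could give the difference between these 2 libraries, not whether the conditions differ. Beside it stands the ratio of normalised counts with its exact 95% interval, which covers counting error only.

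Across the 11921 genes the median difference was 0.04, with quartiles of -0.37 and 0.45. Of them 1004 (8.42%) were past 2-fold higher in OKS+FoxO6_D5 and 999 (8.38%) past 2-fold lower. Both criteria were met by 769 genes (6.45%) that were higher and 845 (7.09%) that were lower, and these shares are the background for the gene lists below. With at least 30 in place of 10 counts the balance turned, to 628 higher and 548 lower calls. Protein-coding genes made up 710 of the higher and 776 of the lower calls. Fractional counts, which show that reads were shared with a similar sequence, were present in 136 of the higher and 179 of the lower calls. Of the genes described below, Tap1, Igtp, Gadd45a, Tgfbr2, Notum, Spry1, Nefl, Arsb, Bnip3, Ccnd1, Ccnd2, Akt2 and Gapdh had such counts in addition to those marked in the text, and their values are uncertain to that extent.

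**Figure D1:**
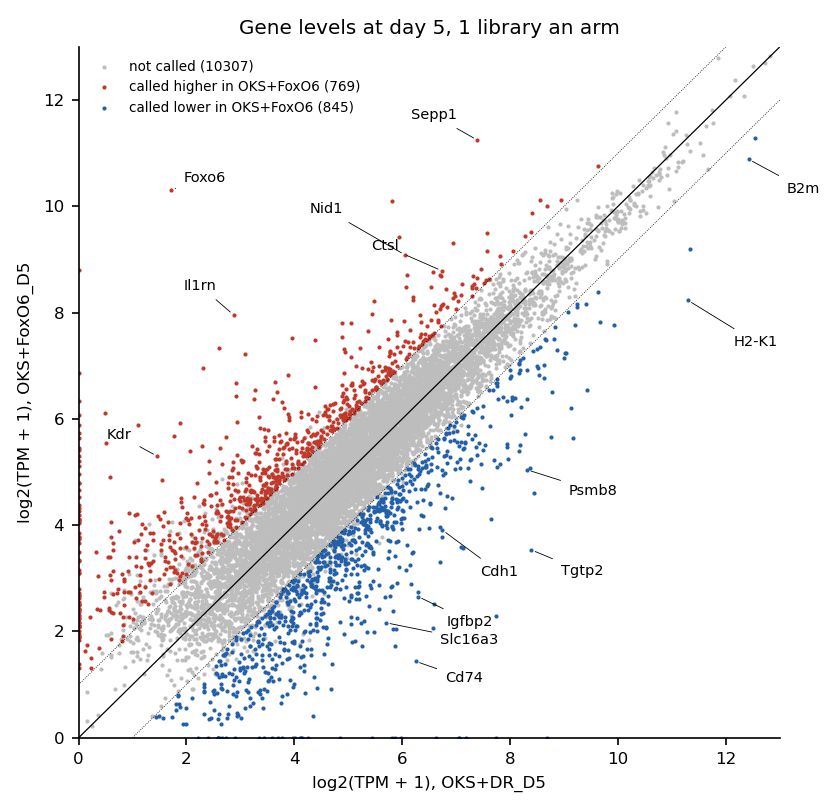
Each point is 1 of the 11921 genes, with log2(TPM + 1) in OKS+DR_D5 on the x axis and in OKS+FoxO6_D5 on the y axis. The solid line marks equal levels and the dotted lines a difference of 1. The 769 genes called higher (red) and the 845 called lower (blue) lie outside the dotted lines, with Foxo6, Sepp1, Il1rn, H2-K1, Cd74 and others named.

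To set the day 5 difference against a spread between libraries, a model over all 10 libraries took the departures of the other days from a shared arm effect as its error. This edgeR quasi-likelihood fit has 3 residual degrees of freedom, and the other days are not replicates of day 5. Of 11028 genes it called 13 (0.118%) higher and 6 (0.0544%) lower in OKS+FoxO6 at day 5, and 1369 had an unadjusted p under 0.05. The count moved with the days in the fit: it was 37 higher and 43 lower without the day 0 pair, 1 and 2 without the day 1 pair, and 275 and 213 without the day 7 pair. Besides Foxo6 the genes called higher by this edgeR fit were Adh7, Slc4a11, Il17rd, Cav2, Pros1, Nid1, Psd4, Sepp1, Cacna1h, Cacnb2, Prss12 and Srp54b, the last with shared reads and with a second gene entry of the same name that was not called. The 6 called lower were Tgtp2, Gbp4, H2-K1, Cdh1, Nkd1 and Myh2.

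Genes of antigen presentation by MHC class I, which shows peptides from inside the cell to T cells, were lower in OKS+FoxO6_D5. Of 23 members measured, 20 were called lower and none higher, with a median difference of -2.11 against 0.04 for all genes. The class I heavy chain H2-K1 (chr17:33996017-34000347, GRCm38) stood at 116, 124, 429.9, 2518 and 2273 TPM in OKS+DR on days 0, 1, 3, 5 and 7. In OKS+FoxO6 it stood at 85.8, 95.6, 126, 299.9 and 697 TPM. It started at a like level in both arms and climbed later and less with FoxO6, and at day 5 its counts were 8.80-fold lower (95% interval 7.96 to 9.74). In the edgeR fit its day 5 effect was -3.14 ± 0.47 (SE, log2 scale; adjusted p = 0.0404). Beta-2-microglobulin, B2m (chr2:122147686-122153083), the light chain of every class I molecule, had 5504 TPM without and 1891 TPM with FoxO6 at day 5, 3.02-fold lower (2.84 to 3.21). In bulk RNA, fewer cells of a type and less RNA per cell cannot be told apart.

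The genes that make and load class I peptides went the same way. Tap1, a subunit of the peptide transporter of the endoplasmic reticulum, had 290.5 TPM without and 44.7 TPM with FoxO6, 6.53-fold lower (5.4 to 7.95). Psmb8, a catalytic subunit of the immunoproteasome, had 317 TPM in OKS+DR_D5 and 32.0 TPM in OKS+FoxO6_D5, 11.5-fold lower (7.93 to 17.2). Nlrc5, the transactivator of class I genes, was 7.42-fold lower (5.34 to 10.5). The 3 members not called were the general chaperones of the endoplasmic reticulum Canx, Calr and Pdia3, with differences of -0.42, -0.19 and 0.02. Reads of the class I genes H2-K1, H2-D1, H2-Q4, H2-Q6, H2-Q7, H2-T10, H2-T22 and H2-T23 were split between near-identical copies, so the value of each single heavy chain gene is uncertain. Of 11 listed genes of MHC class II presentation, 4 reached the count limit and 3 of these were called lower, only Cd74 with at least 30 counts. They were the invariant chain Cd74 (60 counts against 2, ratio 46.0, interval 12.2 to 388), H2-Ab1 (12 against 0, at least 6.13-fold lower against a floor of 3 counts) and cathepsin S, Ctss (12 against 1, ratio 18.4, interval 2.72 to 786). All 3 reached the limit through OKS+DR_D5 alone, so the limit favoured this direction. The list median was -3.53, and -2.19 with no count minimum beyond 1 count. Ifi30, the lysosomal thiol reductase, was not called.

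The GTPases that interferon gamma is known to induce, which guard against intracellular parasites, were lower nearly throughout: 17 of 18 measured members were called lower, none higher, and the median difference was -2.31. Upstream sequences of 4 of them, and of the interferon-responsive genes Irf1, B2m and Psmb8, are taken from the RefSeq table (GRCm38.p6) and shown because these are the sites through which the pathway is known to act. Each sequence shown holds a marked site, and they are examples that do not stand for their lists. Among the class I genes, for instance, the response element was in 5 of 21 windows. The 150 bases before each RefSeq start site are written 5′ to 3′ on the gene's own strand, and capitals mark the interferon-stimulated response element (GAAA, any 2 bases, GAAA, or its reverse complement) and the gamma-activated site (TTCNNNGAA).
Tgtp1, chr11:48992247-48992396, minus strand: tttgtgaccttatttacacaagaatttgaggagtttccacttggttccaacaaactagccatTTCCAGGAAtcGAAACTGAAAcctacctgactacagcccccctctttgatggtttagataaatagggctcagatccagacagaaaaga
Tgtp2, chr11:49064213-49064362, minus strand: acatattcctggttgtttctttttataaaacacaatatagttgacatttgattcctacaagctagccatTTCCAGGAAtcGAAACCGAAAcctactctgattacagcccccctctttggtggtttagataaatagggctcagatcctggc
Igtp, chr11:58199406-58199555, plus strand: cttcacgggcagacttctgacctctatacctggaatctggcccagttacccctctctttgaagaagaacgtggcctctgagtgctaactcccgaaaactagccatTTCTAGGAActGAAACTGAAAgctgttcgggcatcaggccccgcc
Gbp2, chr3:142620513-142620662, plus strand: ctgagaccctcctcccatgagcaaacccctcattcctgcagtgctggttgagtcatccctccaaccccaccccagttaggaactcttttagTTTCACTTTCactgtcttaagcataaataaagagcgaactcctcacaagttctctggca
Irf1, chr11:53769864-53770013, plus strand: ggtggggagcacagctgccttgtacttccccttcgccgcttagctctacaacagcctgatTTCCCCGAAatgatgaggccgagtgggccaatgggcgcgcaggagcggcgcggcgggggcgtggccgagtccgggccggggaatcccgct
B2m, chr2:122147537-122147686, plus strand: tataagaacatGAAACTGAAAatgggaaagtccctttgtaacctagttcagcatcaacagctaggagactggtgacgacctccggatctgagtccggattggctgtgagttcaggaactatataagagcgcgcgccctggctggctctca
Psmb8, chr17:34198045-34198194, plus strand: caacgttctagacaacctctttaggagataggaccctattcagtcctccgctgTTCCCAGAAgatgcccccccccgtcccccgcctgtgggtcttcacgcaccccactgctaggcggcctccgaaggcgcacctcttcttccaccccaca

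In Tgtp1, Tgtp2 and Igtp the gamma-activated site began 11 bases before the response element, at 88, 81 and 45 bases before the start site. Gbp2 and B2m held the response element without the other site, at 59 and 139 bases, and Irf1 and Psmb8 held a gamma-activated site at 90 and 97 bases. For Irf1 this is the upstream of the table's windows, and the other window, at a start further into the gene, held neither site in its upstream bases. Of 13 windows found for 12 of the 18 GTPases, 11 (84.6%) held the response element within 250 bases before to 50 after the start, against 3.44% of all 32851 windows in the table. The gamma-activated site was in 7 of those 13 windows and in 8.30% of all windows. Among the class I genes the response element was in 5 of 21 windows for 19 of 23 genes and the gamma-activated site in 1 (4.76%). Among the type I effectors, most of which were not called, the response element was in 14 of 29 windows (48.3%) for 28 of 39 genes and the gamma-activated site in 6 (20.7%), and among lysosomal genes the response element was in 1 of 34 windows for 29 of 36. The forkhead site GTAAACA, or its reverse complement, was in 3.65% of all windows, and its core TAAACA, which overlaps it, in 13.4%. A comparison of motif shares between called genes and all members is void, since fewer than 80% of either had a window, and the same holds for the GTPase and type I effector lists, whose counts are descriptions.

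Tgtp2 and Tgtp1 are near-identical neighbours on chromosome 11 that share reads, so the split of reads between them is an estimate. At day 5 Tgtp1 had 684.5 TPM without and 91.9 TPM with FoxO6, a difference of -2.88, against -4.86 for Tgtp2. The interval of Tgtp2 below does not cover the error of this split. Tgtp2 had 0, 0, 46.3, 336 and 129 TPM in OKS+DR and 0.33, 3.96, 1.31, 10.6 and 8.42 TPM in OKS+FoxO6 on days 0, 1, 3, 5 and 7. At day 5 the ratio of counts was 38.7-fold lower (26 to 60.3), and the edgeR effect was -5.27 ± 0.60 (SE; adjusted p = 0.018). Igtp, with 434.5 against 49.8 TPM, was 8.98-fold lower (7.24 to 11.2). Gbp4 (chr5:105115767-105139586) had 1.04, 3.95, 27.9, 57.8 and 56.9 TPM in OKS+DR and 0, 0.55, 1.67, 3.11 and 4.27 TPM in OKS+FoxO6, with an edgeR effect of -4.25 ± 0.55 (SE; adjusted p = 0.0312). Gbp2 differed less, 296 against 74.0 TPM or 4.14-fold (3.49 to 4.93), and so did Irgm1, with 592 against 216 TPM or 2.86-fold (2.55 to 3.21). In Tgtp2, Igtp, Gbp4, Gbp2 and Irgm1, OKS+DR rose from near 0 or a low level on day 0 to a peak on day 5. In these genes the OKS+FoxO6 library of day 5 lay between the OKS+DR values of days 1 and 3, except for Gbp4, where it lay below that of day 1.

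Of the list of interferon signalling genes, most members were not called. Irf1, a transcription factor that interferons induce, stood at 13.7, 30.7, 95.01, 155.5 and 81.7 TPM in OKS+DR and at 11.8, 15.7, 9.89, 48.4 and 34.0 TPM in OKS+FoxO6, lower on every day. At day 5 its counts were 3.79-fold lower (2.93 to 4.95). Among other members called, Stat2 was 2.07-fold lower (1.84 to 2.32), the feedback inhibitor Socs1 was 3.22-fold lower (1.45 to 7.65) and the phosphatase Ptpn6, with 14 against 2 counts, had a ratio of 10.7 (2.46 to 97.2). In all 5 of 21 members were called, all lower, and 3 with at least 30 counts. None of the receptors and kinases was called: the differences were 0.13 for Ifngr1, -0.77 for Ifngr2, 0.14 for Ifnar1, -0.53 for Ifnar2, 0.37 for Jak1, 0.15 for Jak2 and 0.18 for Tyk2. Nor were the factors Stat3, Irf2, Irf3, Irf7 and Irf9, with 0.38, 0.67, 0.28, -0.41 and -0.46, or the feedback genes Socs3, Usp18 and Ptpn2, with 0.76, -0.10 and -0.13. The 21 interferon ligand genes in the files, a group chosen after values were seen, held 5.69 expected counts over all 10 libraries together, and 20 of them were at 0 in both day 5 libraries, which allows up to 2.21 CPM (counts scaled to the library total, without length) in OKS+DR_D5 and 1.46 CPM in OKS+FoxO6_D5.

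Effectors of type I interferon were less uniform, with 14 of 39 called lower, 1 higher and a median difference of -0.67. Isg15, the ubiquitin-like modifier, was at 218 TPM without and 82.5 TPM with FoxO6, 2.75-fold lower (1.97 to 3.86). Ifit1, which binds viral RNA, was 3.86-fold lower (2.80 to 5.39), Oasl2 3.52-fold (3.09 to 4.03) and Lgals3bp 5.32-fold (4.22 to 6.76). Oas2, a synthetase of the same antiviral set, had 363 and 395 TPM, and Ifih1, a sensor of viral RNA, differed by -0.06. The member called higher was the membrane protein Ifitm1, with 3.10, 5.29, 18.9, 19.9 and 41.4 TPM in OKS+DR and 44.6, 86.8, 108, 179 and 143 TPM in OKS+FoxO6. Every OKS+FoxO6 library stood above every OKS+DR library for Ifitm1, while its neighbour Ifitm3 differed by -0.62 at day 5.

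**Figure D2:**
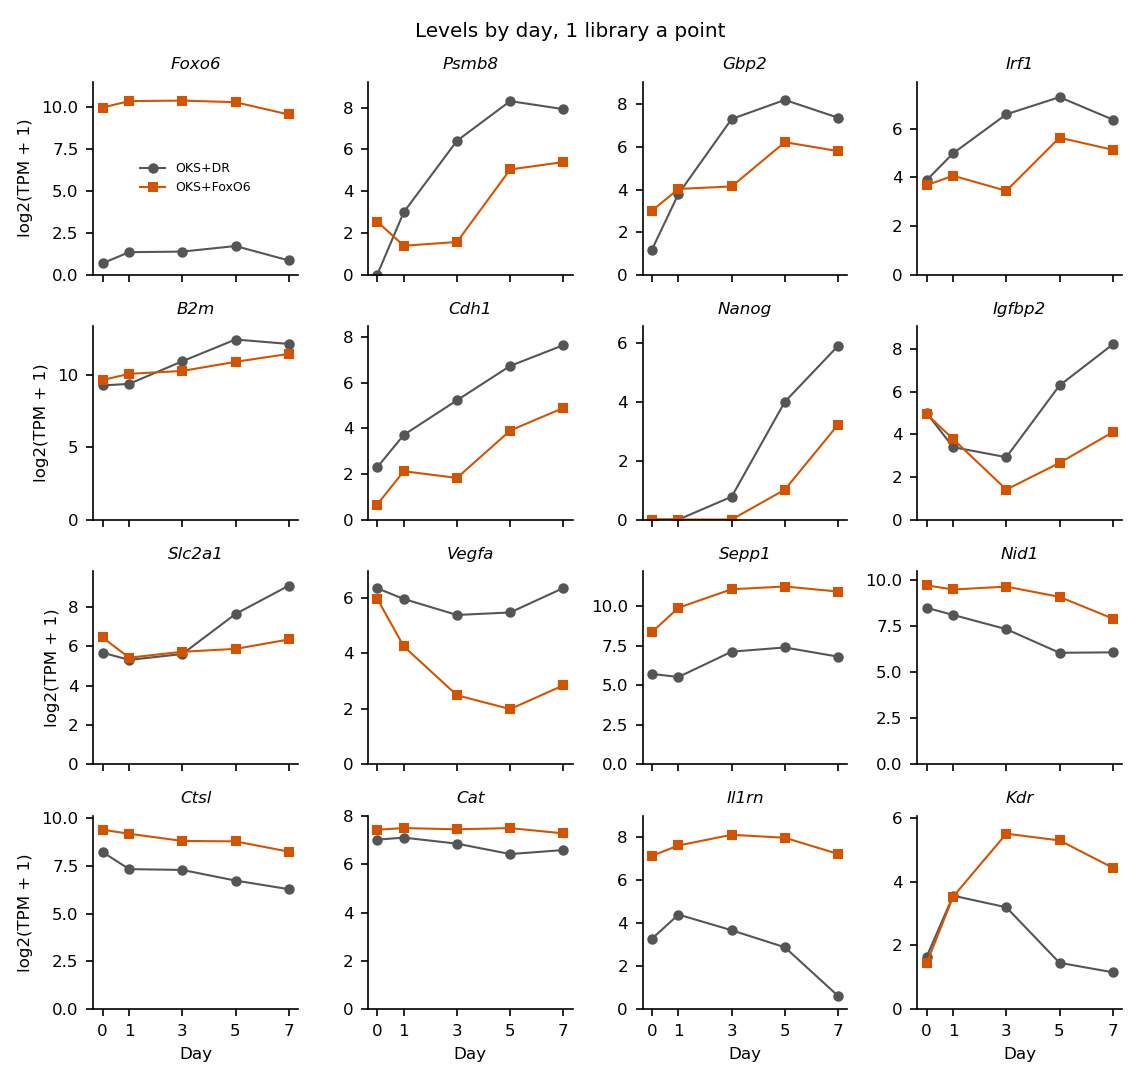
Levels of 16 genes as log2(TPM + 1) on the y axis against day on the x axis, 1 library a point, for OKS+DR (grey circles) and OKS+FoxO6 (orange squares). Psmb8, Gbp2 and Irf1 climb to day 5 in OKS+DR and stay lower in OKS+FoxO6 from day 3, while Sepp1, Nid1, Ctsl and Il1rn lie higher in OKS+FoxO6 on all 5 days.

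Secreted immune factors went both ways. Il1rn (chr2:24336853-24351494), the natural antagonist of the interleukin-1 receptor, was the protein-coding gene without shared reads that stood highest after Foxo6 and Try5. It had 8.61, 19.97, 11.7, 6.32 and 0.53 TPM in OKS+DR and 138, 193, 273, 248 and 147 TPM in OKS+FoxO6, so the arms were apart on every day, with 51.3-fold more counts at day 5 (23.4 to 141) and an edgeR effect of 5.65 ± 0.92 (SE; adjusted p = 0.0534). Psd4, which starts downstream of Il1rn on the same strand (chr2:24367580-24414954) and encodes an exchange factor of Arf GTPases, had 3.91 against 44.0 TPM, 20.6-fold more counts (10.3 to 48.1). The chemokine Ccl2 was lower, with 179 against 41.6 TPM or 4.55-fold (3.02 to 7.02), and Ccl8 higher, with 84.3 against 194 TPM or 2.21-fold (1.41 to 3.56). Of 11 chemokines and cytokines measured 4 were called higher and 1 lower.

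Of 24 complement and acute phase genes 5 were called higher and 7 lower (4 lower with at least 30 counts). Lower were the complement proteases C1ra, C1s1, C2 and Cfb, the component C4b, the C1 inhibitor Serping1 and the acute phase protein Saa3. Serping1 went from 32.7 TPM on day 0 to 393 TPM on day 5 in OKS+DR and from 62.3 to 129 TPM in OKS+FoxO6, 3.22-fold lower at day 5 (2.72 to 3.81). Higher were Lbp, the carrier of bacterial lipopolysaccharide, with 13.7 against 112 TPM or 9.14-fold (5.41 to 16.6), thrombomodulin, Thbd, 2.64-fold (1.98 to 3.57), and Serpina3n, Kng1 and Kng2, whose counts were partly shared with paralogs. The list median was 0.10, with 12 members above 0 and 12 below, and it was 0.25 in CPM and 0.48 with at least 30 counts.

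Epithelial genes, the markers of the mesenchymal to epithelial transition, were next in size among the lower lists. Of 21 measured, 10 were called lower and 1 higher, and 18 of the 21 lay below 0, with a median of -0.89. Cdh1 (chr8:106603351-106670246), E-cadherin, had 3.90, 12.2, 36.7, 106 and 201 TPM in OKS+DR and 0.58, 3.35, 2.55, 14.01 and 28.9 TPM in OKS+FoxO6. Its day 5 level with FoxO6 lay near that of day 1 without, the counts were 7.86-fold lower (5.97 to 10.5), and the edgeR effect was -2.98 ± 0.43 (SE; adjusted p = 0.0356). The adhesion molecule Epcam had 103 against 23.4 TPM, 4.57-fold lower (3.26 to 6.495), the keratin Krt8 56.1 against 14.2 TPM, 4.11-fold (2.56 to 6.79), and the protease inhibitor Spint2 154.5 against 36.9 TPM, 4.38-fold (3.07 to 6.36). The member called higher was the tight junction protein occludin, Ocln, with 4.84 against 11.8 TPM. Desmosomal Dsp and Jup were not called, with differences of -0.57 and -0.20.

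Pluripotency genes were thinly covered at day 5: 16 of 30 listed reached 10 counts and 8 were at 0 in both libraries, among them Lin28a, Utf1 and Dppa4. Of the 16, 4 were called lower (2 with at least 30 counts) and 2 higher, with a median of -0.48. Nanog, a core factor of the pluripotent state, had 22 counts in OKS+DR_D5 and 2 in OKS+FoxO6_D5, a ratio of 16.9 (4.14 to 148), and its TPM was 0, 0, 0.71, 14.9 and 58.4 without and 0, 0, 0, 1.02 and 8.31 with FoxO6. Gdf3, a ligand of the nodal pathway, was 3.86-fold lower (2.35 to 6.56), L1td1 3.45-fold (2.91 to 4.10) and Klf2 2.74-fold (1.37 to 5.70). Zfp42 had a difference of -0.74 and Sall4 of -0.48, and neither was called. Klf5 and Tbx3, factors that embryonic stem cells share with other tissues, were called higher, 4.37-fold (2.24 to 9.53) and 2.54-fold (1.20 to 6.00). Esrrb, with 2 and 5 counts, and Dppa5a, with 2 and 0, stayed under the count limit.

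Fibroblast genes were present in both libraries, as the label MEF requires: the intermediate filament Vim stood at 1588 and 1596 TPM. Of 34 measured 10 were called higher and 1 lower, with a median of 0.60. Col1a2, a chain of collagen I, was at 1615, 1538, 1255, 374 and 261.5 TPM in OKS+DR and at 1336, 1048, 1444, 1119 and 758 TPM in OKS+FoxO6, so that the arms were close until day 3 and apart on days 5 and 7. Its partner chain Col1a1 differed by 0.12. Thbs1, a matrix glycoprotein, was 4.67-fold higher (3.69 to 5.99), the proteoglycan Dcn 3.14-fold (2.26 to 4.46) and Twist1, a mesenchymal transcription factor, 2.29-fold (1.71 to 3.10). S100a4, a calcium-binding protein of migrating fibroblasts, was the member called lower, with 63.5 against 18.1 TPM, having come down from 1360 and 1184 TPM on day 0.

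**Figure D3:**
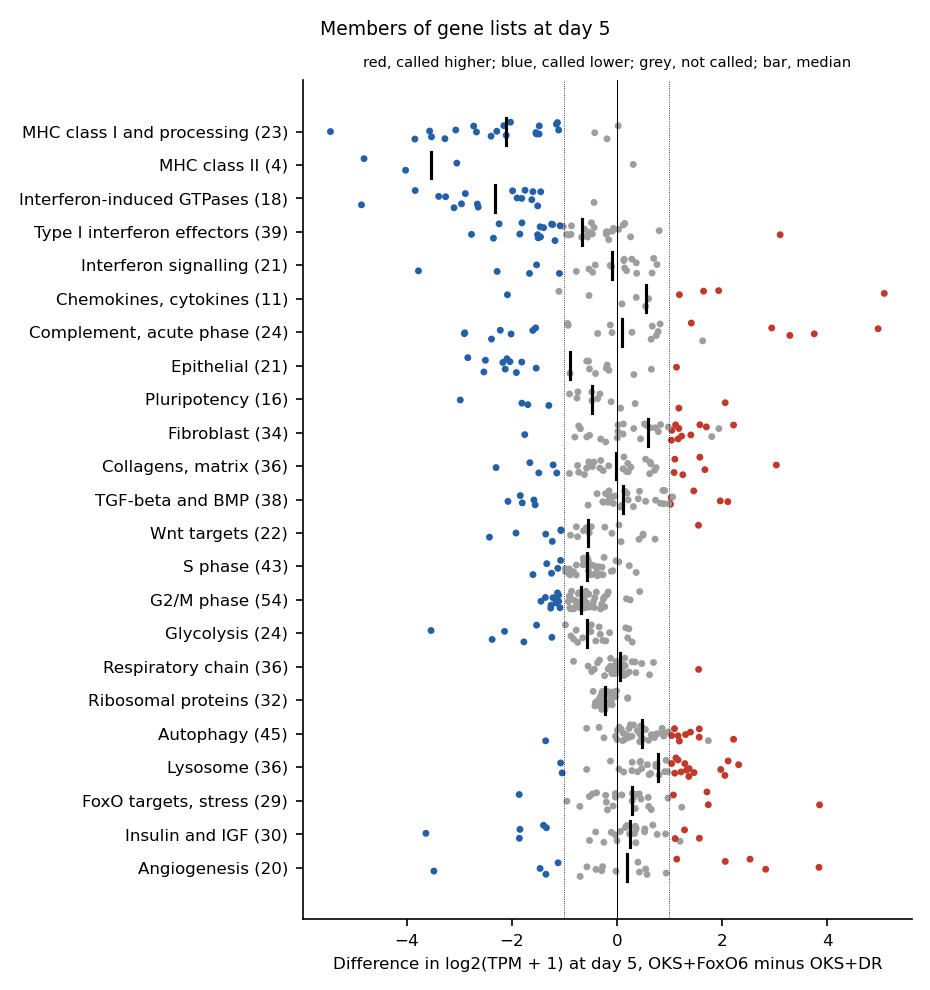
Each point is a gene of the list named on the y axis, with the number measured in brackets, and the x axis is its difference in log2(TPM + 1) at day 5, OKS+FoxO6 minus OKS+DR. Red points were called higher, blue points called lower and grey points not called, the bar is the list's median, and the dotted lines mark a difference of 1. The class I and GTPase lists lie left of 0 nearly whole, while the lysosome list has 14 red points.

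Of 37 lists examined, not all of them described here, 10 had a median of -0.5 or lower and 4 a median of 0.5 or higher. The 4 include the red cell list, with 1 measured gene. Most cell cycle genes were not called. Among 43 S phase genes 40 lay below 0 and 5 were called lower, with a median of -0.56. Among 54 genes of mitosis 51 lay below 0 and 11 were called lower, with a median of -0.69, and neither list had a member called higher. Top2a, the topoisomerase that untangles chromosomes, had 288 against 120 TPM, 2.35-fold lower (2.10 to 2.63), Cdc20, an activator of the anaphase promoting complex, was 2.70-fold lower (2.05 to 3.57) and Prim1, a DNA primase subunit, 3.21-fold (2.06 to 5.10). The proliferation marker Mki67 was 1.92-fold lower (1.75 to 2.09) with a difference of -0.88, and thus not called. The cyclin dependent kinase inhibitor Cdkn1a differed by 0.37, and cyclins Ccnd1 and Ccnd2 by -0.88 and -0.98. Ribosomal protein genes, a list with little spread, had a median of -0.23 and no call.

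Lysosomal genes were the list with the most members called higher, 14 of 36, with 2 lower and a median of 0.78. The summed level of the list was 4332 TPM in OKS+DR_D5 and 8495 TPM in OKS+FoxO6_D5. Ctsl (chr13:64359337-64370890), cathepsin L, was at 299, 160.5, 156, 105.5 and 77.0 TPM in OKS+DR and at 674, 582, 448, 441.5 and 303 TPM in OKS+FoxO6, 4.04-fold higher at day 5 (3.37 to 4.87). Its level came down with time in both arms and the OKS+FoxO6 library was the higher on each day. Ctsk, cathepsin K, was 4.28-fold higher (2.94 to 6.42), the alpha-galactosidase Gla 4.05-fold (2.62 to 6.52), the heparan sulphamidase Sgsh 4.42-fold (2.68 to 7.71) and the membrane protein Lamp1 2.17-fold (1.996 to 2.36). Arsb and Gm2a were called lower, and Tfeb, a master factor of lysosomal genes, differed by 0.39 on the TPM scale and -0.24 in CPM.

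Autophagy genes lay higher in 40 of 45 cases, with 9 called higher, 1 lower and a median of 0.47. Called higher were Wipi1, a phosphoinositide reader of forming autophagosomes, 4.35-fold (1.83 to 12.6), the receptor Optn 1.98-fold (1.67 to 2.36), Vmp1 2.23-fold (1.79 to 2.79), Gabarapl1 2.04-fold (1.46 to 2.90), Atg4b, Atg101, Wdr45, Tecpr1 and Becn1. In CPM the differences of Becn1, which has fractional counts, of Tecpr1 and of Optn were 0.80, 0.82 and 0.98, under the 2-fold limit. The mitophagy receptor Bnip3, which is also a hypoxia target, was called lower, with 63.5 against 24.2 TPM. Ulk1, the kinase that starts the pathway, differed by 0.11.

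Genes that FoxO factors are known to regulate, and stress genes, gave 4 called higher and 1 lower of 29. Sepp1 (chr15:3268547-3280508), the selenium carrier selenoprotein P, was at 51.7, 45.0, 139, 167 and 111 TPM in OKS+DR and at 327, 958, 2158, 2432 and 1949 TPM in OKS+FoxO6. Every OKS+FoxO6 library was above every OKS+DR library, the day 5 counts were 13.4-fold higher (11.6 to 15.4), and the edgeR effect was 3.73 ± 0.54 (SE; adjusted p = 0.0356). Gadd45a, a growth arrest gene, stood at 59.0 against 199 TPM, Cited2 at 12.2 against 42.2 TPM, 3.34-fold higher (1.94 to 6.12), and catalase, Cat, at 84.7 against 179.5 TPM, 2.05-fold (1.70 to 2.48). Sod2, Bcl6, Sesn3, Ddit4 and Txnip, other known FoxO targets, were not called, with differences of 0.61, 0.97, 0.37, -0.20 and -0.18. The metallothionein Mt2 was called lower, 3.86-fold (3.05 to 4.92).

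**Figure D4:**
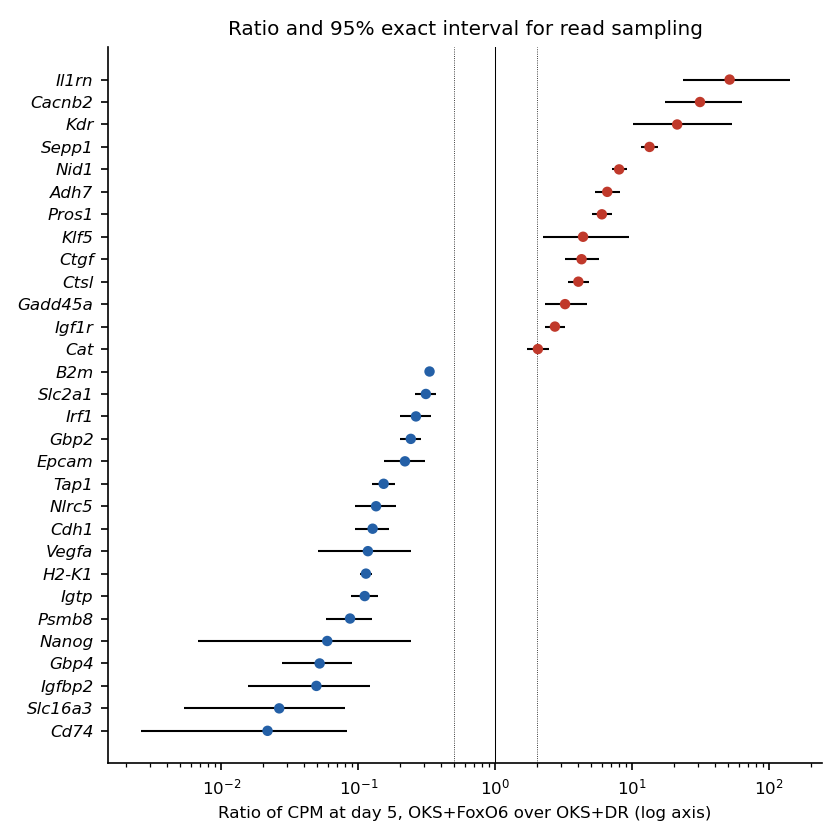
Ratio of normalised counts at day 5, OKS+FoxO6 over OKS+DR, for 30 genes on a log axis, with the exact 95% interval for read sampling as a line. Dotted lines mark 2-fold. Il1rn and Cacnb2 lie furthest to the right, Cd74 and Slc16a3 furthest to the left, and genes with few counts such as Nanog have wide intervals.

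Of 30 members of the insulin and IGF list 3 were called higher and 5 lower. Igf1r (chr7:67952827-68233668), the IGF receptor, was at 17.9, 31.1, 41.9, 25.2 and 20.3 TPM in OKS+DR and at 40.9, 57.3, 73.6, 76.7 and 45.7 TPM in OKS+FoxO6, 2.72-fold higher at day 5 (2.32 to 3.21). The ligand Igf2 was 3.02-fold higher (2.30 to 4.02). Of 6 binding proteins measured, Igfbp2, Igfbp3 and Igfbp5 were called lower, 20.2-fold (8.24 to 64.3), 3.75-fold (3.23 to 4.36) and 2.79-fold (2.17 to 3.60). The other binding proteins were not called, with differences of 0.25 for Igfbp6, 1.20 for Igfbp7 on 4 against 15 counts, and -0.52 for Igfbp4, which was 0.30 in CPM. Igfbp2 had 31.1, 9.54, 6.6, 77.3 and 296 TPM in OKS+DR, a late rise, and 29.9, 12.7, 1.65, 5.31 and 16.1 TPM in OKS+FoxO6. The imprinted RNA Meg3 was 3.84-fold lower (3.27 to 4.53). The receptor Insr and the kinases Akt1 and Akt2 were not called, with differences of 0.36, 0.33 and -0.03.

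Angiogenic ligands and receptors each went both ways, with 5 of 20 members of the list called higher and 4 lower. Kdr (chr5:75932827-75978458), the main receptor of VEGF-A, was at 2.11, 10.8, 8.18, 1.74 and 1.23 TPM in OKS+DR and at 1.70, 10.6, 44.6, 38.4 and 20.8 TPM in OKS+FoxO6, 21.3-fold higher at day 5 (10.2 to 53.5). The ligand Vegfa (chr17:46016993-46032369) went the other way, with 80.2, 61.1, 40.6, 43.4 and 80.6 TPM in OKS+DR and 61.5, 17.98, 4.61, 2.97 and 6.18 TPM in OKS+FoxO6, 8.51-fold lower at day 5 (4.14 to 19.7). Both arms began near each other on day 0 for either gene, and the arms parted from day 3 for Kdr and from day 1 for Vegfa. The lymphatic ligands Vegfd and Vegfc were higher, 7.14-fold (4.27 to 12.8) and, with 2 against 20 counts, at a ratio of 6.53 (1.58 to 57.6), as were the receptor Tek, 2.14-fold (1.77 to 2.60), and Ecscr. The co-receptors Nrp2 and Eng were lower, 2.77-fold (2.50 to 3.08) and 2.32-fold (1.54 to 3.53). The endothelial genes Cdh5, Emcn, Cldn5, Erg, Sox17 and Sox18 were at 0 in both day 5 libraries.

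Glycolysis genes were lower in 20 of 24 cases, with 6 called lower, none higher and a median of -0.57. The 6 were the lactate exporter Slc16a3, the glucose transporters Slc2a3 and Slc2a1, the kinase Pdk1 that closes pyruvate dehydrogenase, Aldoc and Ldha. Slc2a1 (chr4:119108711-119137983) had 49.9, 38.4, 47.5, 197 and 536 TPM in OKS+DR and 85.8, 41.6, 51.5, 57.1 and 79.8 TPM in OKS+FoxO6, 3.21-fold lower at day 5 (2.69 to 3.85). Its rise on days 5 and 7 was seen without FoxO6 and was much smaller with it. Slc16a3 had 74 counts against 3, a ratio of 37.8 (12.4 to 188), Slc2a3 was 5.36-fold lower (3.64 to 8.10) and Ldha 2.40-fold (2.13 to 2.71). Gapdh, the enzyme used as a PCR reference, differed by -0.27. In the respiratory chain 1 of 36 genes was called, Ndufa1, higher, and the list median was 0.05.

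Matrix and growth factor genes gave calls in both directions. The basement membrane linker nidogen-1, Nid1 (chr13:13437551-13512269), was at 359.6, 275, 160.3, 65.4 and 66.5 TPM in OKS+DR and at 837, 716, 799, 543 and 240 TPM in OKS+FoxO6, 8.02-fold higher at day 5 (7.08 to 9.11), with an edgeR effect of 3 ± 0.42 (SE; adjusted p = 0.0356). Col4a2, a chain of basement membrane collagen, was 2.31-fold higher (2.15 to 2.48), while Col6a2 was 3.28-fold lower (2.77 to 3.90). Of 36 collagen and matrix genes 6 were called higher and 5 lower, with a median of -0.02 in TPM and 0.07 in CPM. Ctgf, a matricellular target of TGF-beta and Yap, was 4.26-fold higher (3.23 to 5.72) and the receptor Tgfbr2 3.83-fold (3.40 to 4.34). The BMP targets Id1, Id2 and Id3 were lower, 3.89-fold (1.99 to 8.05), 3.09-fold (2.21 to 4.37) and 3.77-fold (1.93 to 7.83), as was the ligand Bmp2, 3.76-fold (1.81 to 8.40). Of 38 members of the TGF-beta and BMP list 5 were called in each direction, and 3 lower with at least 30 counts.

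Wnt targets and feedback genes counted 6 lower and 1 higher of 22, with a median of -0.55. Nkd1, an inhibitor that Wnt signals induce, was at 4.38, 1.33, 22.1, 153 and 189 TPM in OKS+DR and at 3.11, 2.58, 13.1, 27.6 and 66.5 TPM in OKS+FoxO6, 5.31-fold lower at day 5 (3.99 to 7.17), with an edgeR effect of -2.41 ± 0.38 (SE; adjusted p = 0.0489). Notum, a secreted Wnt inhibitor, was 4.09-fold lower (3.08 to 5.51), and Sfrp1, Apcdd1, Ror2 and Fzd2 were the others called lower. The member called higher was Nkd2, the paralog of Nkd1, with 2 against 25 counts, a ratio of 8.16 (2.03 to 71.1). Axin2, a general Wnt target, differed by -0.58 and Lef1 by -0.53, under the limit. Among 45 small GTPases and regulators 4 (8.89%) were called higher, among them Rhoj, Arhgef6 and Arhgap29, and none lower. Among 24 genes of ERK feedback Fos and Spry1 (8.33%) were called higher, with Dusp5 at -0.02. Both shares were near the 6.45% of all genes called higher. Of 41 chromatin regulators Hdac9, a class II histone deacetylase, was called higher, 2.77-fold (2.13 to 3.64), and Dnmt3a, Dnmt3b and Hdac11 lower (1 of them with at least 30 counts). At 2.44% higher and 7.32% lower, this list was below or near the 6.45% and 7.09% of all genes. In CPM the difference of Dnmt3a was -0.88, under the limit. Hdac9 had 0.59, 8.65, 21.2, 32.4 and 10.3 TPM in OKS+DR and 3.34, 32.4, 92.8, 98.2 and 35.8 TPM in OKS+FoxO6, the higher on every day.

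Markers of other cell types were read as a check. Of 31 leukocyte genes 20 were at 0 in both day 5 libraries, among them Adgre1, Csf1r, Cd14 and Cd3e, and 3 reached the count limit, of which Laptm5 was called lower, with 69.9 against 27.6 TPM, while Cd3g, with 3 against 16 counts, and Cd68 were not called, with differences of 1.65 and 0.27. The list's summed level was 30.8, 91.6, 104, 111 and 78.3 TPM in OKS+DR on days 0, 1, 3, 5 and 7. In OKS+FoxO6 it was 39.7, 39.0, 38.5, 78.8 and 79.8 TPM on the same days. The embryonic globin Hbb-y, a red cell gene, was at 199 and 292 TPM. Neural genes had a summed level of 989 against 692 TPM. Of 18 measured 6 were called lower and 3 higher, and among the lower were the neurofilament Nefl, with 246 against 43.4 TPM, and Tubb3, with 32.3 against 3.83 TPM. Of 12 muscle genes Myh2 and Myh1, whose reads are shared, were called lower and Actc1 higher, while Myod1, Myf5 and Myog were at 0. Mpeg1, described below, and Cd74, Ctss and Ptpn6, described above, were called lower and were not in the leukocyte list. The part of other cells in the immune gene differences was not tested.

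Ranked by the difference alone, the 12 highest and 12 lowest called genes were mostly pseudogenes and predicted genes with fractional counts, such as Gm12191 at 8.79 and Rpl30-ps9 at -8.69, where the counting could assign shared reads to one copy in 1 library and to another in the next. Among them, Foxo6 and the trypsinogen Try5, with 0 against 60 counts or at least 13.1-fold, were the exceptions without fractional counts. The protein-coding genes without fractional counts named next were chosen after their values were seen. Among the highest were Prrt4, 30.4-fold (15.8 to 66.9), the calcium channel subunit Cacnb2, 31.2-fold (17.3 to 62.9), its pore-forming relative Cacna1h, with 0 against 80 counts or at least 17.4-fold, the protease Prss12, with 2 against 149 counts or a ratio of 48.6 (13.2 to 405), Emb, 21.7-fold (8.28 to 80.8), and the glutamate transporter Slc1a1, with 0 against 53 counts or at least 11.5-fold. Among the lowest were the pore protein Mpeg1, 25.6-fold (13.6 to 54.4), the corticotropin releasing hormone receptor Crhr2, 17.1-fold (9.25 to 35.2), the thyroid hormone deiodinase Dio3, 16.9-fold (8.19 to 40.3), and the galectin Lgals7, 16.2-fold (8.17 to 36.5). Crhr2 had 0, 2.01, 51.1, 95.8 and 87.0 TPM in OKS+DR and 0, 0.92, 2.74, 4.71 and 5.94 TPM in OKS+FoxO6, a gain from day 3 in the control arm that stayed small with FoxO6.

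Further genes with an edgeR call were Adh7, Pros1, Slc4a11 and Il17rd. The alcohol and retinol dehydrogenase Adh7 was at 29.9, 71.7, 97.2, 43.3 and 44.5 TPM in OKS+DR and at 145, 256, 433, 297 and 201 TPM in OKS+FoxO6, with an effect of 2.71 ± 0.30 (SE; edgeR adjusted p = 0.018). The anticoagulant protein S, Pros1, was at 61.6, 75.4, 89.2, 66.7 and 48.5 TPM in OKS+DR and at 185, 362, 517, 415 and 242 TPM in OKS+FoxO6, with an effect of 2.58 ± 0.39 (SE; edgeR adjusted p = 0.0455). For both genes every library with FoxO6 stood above every library without it. The membrane transporter Slc4a11 was 7.53-fold higher at day 5 (5.79 to 9.95), and Il17rd, a negative regulator of FGF signals, 4.03-fold (3.11 to 5.29).

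The day 5 differences were then set beside those of the other days. Of the 769 genes called higher, 612, 582, 640 and 621 had the same sign on days 0, 1, 3 and 7, and 399 had it on all 5 days. Of the 845 called lower, 449, 583, 748 and 761 had the same sign, and 305 had it on all 5 days. For the lower genes the day 0 count was a share of 53.1%. The share of all genes with the same sign was not computed, so these sign counts alone do not show that the difference lasted. Past 2-fold in the same direction were 193, 185, 271 and 336 of the higher genes and 120, 222, 456 and 472 of the lower genes. As shares these were 25.1, 24.1, 35.2 and 43.7% of the higher genes, against 8.41, 5.24, 6.07 and 6.596% of all genes tested on those days. For the lower genes they were 14.2, 26.3, 54.0 and 55.9%, against 3.39, 6.17, 8.44 and 15.1%. The sources used here do not say whether the days of an arm came from one infection, so these counts describe the libraries. Over genes the day 5 difference had a Pearson correlation of 0.24, 0.30, 0.52 and 0.50 with those of days 0, 1, 3 and 7, where genes are not independent replicates.

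**Figure D5:**
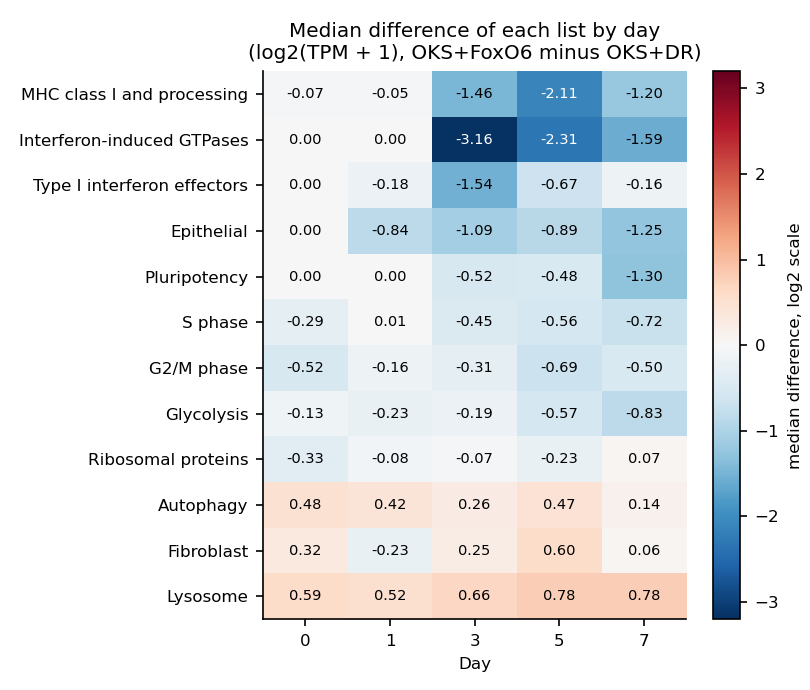
Median difference in log2(TPM + 1), OKS+FoxO6 minus OKS+DR, of the members measured at day 5, for 12 lists (rows) on each day (columns), printed in the cell and shown by colour. The class I and GTPase lists are near 0 on days 0 and 1 and lowest on days 5 and 3, while the lysosome list is above 0.5 on all 5 days.

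By list, the class I and GTPase medians were near 0 on days 0 and 1, and the lysosomal median was above 0.5 on every day. The median of the class I members was -0.07, -0.05, -1.46, -2.11 and -1.20 on days 0, 1, 3, 5 and 7, and that of the GTPases 0.00, 0.00, -3.16, -2.31 and -1.59. The GTPases were chosen by their counts at day 5 and had few earlier, with a summed level of 32.7 and 35.2 TPM without and with FoxO6 on day 0 and 67.7 and 70.0 TPM on day 1, against 3392 TPM in OKS+DR_D5, so their medians on those days are mostly of genes near 0 in both arms. The type I effectors had medians of 0.00, -0.18, -1.54, -0.67 and -0.16, the signalling genes of 0.34, 0.11, 0.13, -0.10 and -0.01, and the complement and acute phase genes of 0.22, 0.14, 0.22, 0.10 and -0.31. The 4 measured genes of class II presentation had medians of -0.12, 0.01, 0.91, -3.53 and -1.80, and 3 of them reached the count limit through OKS+DR_D5 alone. Epithelial genes had medians of 0.00, -0.84, -1.09, -0.89 and -1.25, and glycolysis genes of -0.13, -0.23, -0.19, -0.57 and -0.83. Lysosomal genes had medians of 0.59, 0.52, 0.66, 0.78 and 0.78, and autophagy genes of 0.48, 0.42, 0.26, 0.47 and 0.14. A test of day 5 itself, the arm effect at day 5 minus the effect shared by the other days, called no gene by edgeR at an adjusted p of 0.05. The lowest adjusted p was 0.503, 222 genes had an unadjusted p under 0.05, and DESeq2 called 2. No gene is therefore described as particular to day 5.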

How the data were processed

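Gene expression was measured by RNA-seq in 10 libraries, 1 per arm and day, so no group has replicates. The authors aligned the reads with Bowtie2 and quantified genes with RSEM (versions not given in the sources used here). The submitters' notes name build mm10, and the study's methods a transcriptome index from GENCODE annotations. The deposited files hold, for each gene and library, the authors' expected counts (estimated reads, not normalised), TPM and FPKM. FPKM as deposited by the authors was not used. Expected counts assign reads that fit several genes by estimate, which makes values of near-identical copies uncertain. A count within 0.005 of a whole number was taken as whole.

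Genes with at least 10 expected counts in the higher day 5 library were kept, and differences were taken in log2(TPM + 1). Counts rounded to whole numbers were compared with a two-sided exact binomial test (scipy 1.17.1) at library sizes scaled by TMM, edgeR's trimmed mean scaling. Clopper-Pearson limits were turned into ratio intervals of 95%, and p-values were adjusted by Benjamini-Hochberg over all genes. Intervals and p-values of this test cover counting error only. The edgeR 4.0.16 quasi-likelihood fit (R 4.3.3) used terms for day, arm and the departure of the arm effect at day 5. DESeq2 1.42.0 was an alternative. The steps were tested on simulated data. A fold against 0 counts is a lower bound against a floor of 3 counts per library. Coordinates of genes are from GENCODE M21 (GRCm38), and upstream sequences from RefSeq.

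Members and gene lists were chosen with earlier results of these data known. Genes were named where the rule took them: the factors, list members, and the 12 highest and 12 lowest calls that were also past 2-fold in CPM. Other genes, among them those called by edgeR outside the lists, were named after their values were seen. Alternatives changed the pseudocount, the scale, the count minimum, the library sizes, a length trend, the tool and the days in the fit.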

Additional observations from a re-analysis of the deposited data

How the results depend on the processing

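The labels give no replicate numbers, and day is a term of the edgeR fit, which compares the arms within days. With no count minimum beyond 1 count, 2254 genes were past 2-fold higher and 2441 lower, by construction more genes with few counts. With at least 30 counts, 692 were past 2-fold higher and 574 lower, and of these 628 and 548 were called, against 769 and 845 with at least 10 counts. At the minimum of 30 the number of members called lower fell by over 1.5 times in 6 lists, as given beside them. The edgeR day 5 effect was called in 315 genes higher and 329 lower without its filter, and DESeq2 called 53 and 38. Leaving out 1 day in turn gave 1 to 275 genes higher and 2 to 213 lower. For day 5 against the other days the counts were 19 higher and 17 lower without the filter, 1 and 1 by DESeq2, and 0 to 4 and 0 to 3 with a day left out. The cause was not tested. Lists with a median of at least 0.5 went from 4 to 2 in CPM. Of the 214 genes named in the text and measured at day 5, 194 also had at least 30 counts, and no called gene changed direction under the settings in which it was measured. Among genes not called, 9 had the other sign in CPM (Akt2, Canx, Cd68, Igfbp4, Oas2, Pdia3, Tfeb, Ulk1 and Vim). In CPM 4 genes were no longer called (Becn1, Tecpr1, Optn and Dnmt3a) and Ccnd2 became so, as it did with the length trend removed, and Bcl6 with a pseudocount of 0.1. Without a count minimum Atg101 and Wdr45 lost their call, and Atg101 also with at least 30 counts.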
